A study of Mus musculus with 12 samples.

Results

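Among the leukocytes of MC38 tumors, 2170 cell barcodes carried transcripts of both T cells and macrophages, and these joint barcodes are described here. They were selected on their unique molecular identifier (UMI) counts over all 12 libraries of the pooled matrix, from the barcodes with more than 200 and fewer than 5000 detected genes and at most 10% mitochondrial UMIs. A joint barcode held at least 2 UMIs of Cd3d, Cd3e and Cd3g together, at least 2 of Adgre1 and Csf1r together, and at least 3 of C1qa, C1qb and C1qc together. The 2170 barcodes were 1.68% of the 128912 barcodes kept (exact Clopper-Pearson 95% interval 1.61 to 1.76%), out of 140639 deposited. Since these counts chose the barcodes, the levels of the gate genes are no finding, and every comparison below is a description with no test.

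The cells were CD45+ cells sorted with microbeads from subcutaneous MC38 tumors of C57BL/6 mice on day 17 after implantation, and MC38 is an established mouse colon carcinoma line. The 12 mice formed 4 groups of 3, which received the EZH2 inhibitor PF-06821497 (EZH2i) at 100 mg/kg or vehicle, by daily subcutaneous injection for 7 or for 16 days. Libraries were made with the 10x Genomics 3' v3 kit, in which each droplet contributes 1 barcode and each captured transcript 1 UMI. The barcodes end in a library number from 1 to 12 that no label ties to a mouse or group, so the matrix was treated as 1 pooled sample, no barcode was assigned to EZH2i or vehicle, and intervals cover counting error only.

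T cells recognize peptides through a receptor whose signal runs through the CD3 chains, encoded by Cd3d, Cd3e and Cd3g. Macrophages carry F4/80 (Adgre1) and the CSF1 receptor (Csf1r), make the C1q subunits of complement, take up dead cells, and present peptides on MHC class II. A barcode with both sets of transcripts is found when a T cell and a macrophage share a droplet, whether they entered it attached or apart, when free RNA of one type enters the droplet of the other, or when a macrophage holds RNA of an engulfed T cell. The data hold no measurement that tells these apart, and their part in the results was not tested. On GRCm38, the build named mm10 in the processing notes, Cd3e lies at chr9:44998740-45009627, Adgre1 at chr17:57358691-57483527 and C1qa at chr4:136895917-136898803 (GENCODE M21 gene bounds).

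The label was checked with marker genes that the rule did not use. For T cells these were Trac, Trbc1, Trbc2, Cd2, Lck, Thy1 and Lat (the T reference genes), and for macrophages Cd68, Ctss, Tyrobp, Fcer1g and Cst3 (the myeloid reference genes). A pair of single cell classes served as comparators. Single T cells passed the Cd3 gate with 0 UMIs of Adgre1, Csf1r and the C1q genes (n = 2451), and single macrophages passed both macrophage gates with 0 UMIs of the Cd3 genes (n = 73611). Unless stated otherwise, the values of single cells are given with the library make-up of the joint barcodes. Joint barcodes averaged 7.57 T reference UMIs, against 7.51 in single T cells and 0.0784 in single macrophages. They averaged 84.3 myeloid reference UMIs, against 76.4 in single macrophages and 6.31 in single T cells. Each set was above the level of its single class in 8 of 12 libraries, and the T reference ratio was lowest in library 12, at 0.532. Trac was detected in 55.7% of joint barcodes and 53.4% of single T cells, and Tyrobp in 99.2% of joint barcodes and 99.1% of single macrophages.

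The libraries differed widely in how many joint barcodes they held. Library 12 had the fewest, 12, and library 6 the most, 1030 (median 91.5), and libraries 5 and 6 together held 66.7% of all joint barcodes. As a share of the barcodes kept, the lowest value was 0.142% (library 4), the median 1.10% and the highest 2.75% (library 6). Library 6 was also the most loaded and the shallowest: it held 29.0% of all barcodes kept, with a median of 2291 UMIs each, against a median over libraries of 7668. Outside library 6, joint barcodes numbered 1140, 1.25% of the barcodes kept. Over the whole series, total UMIs per library ran from 21649947 to 158760328.

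Of the 9873 barcodes that passed the Cd3 gate, 22.0% also passed both macrophage gates (21.2 to 22.8%), from 5.63% in library 8 to 31.4% in library 6. Another 2068 passed 1 of the macrophage gates and 5635 passed neither. The same macrophage gates were applied to other leukocytes. They were passed by 21.0% of the 514 barcodes with at least 2 UMIs of the B cell genes Cd79a and Ms4a1 (17.6 to 24.8%), and by 18.4% of the 2636 with at least 2 UMIs of the neutrophil genes Cxcr2 and Retnlg (16.9 to 19.9%). Among 601 barcodes with at least 2 UMIs of the NK cell genes Ncr1, Klrb1c and Klre1 and 0 of the Cd3 genes, the share was 18.8% (15.8 to 22.2%). The share among Cd3-gated barcodes lay inside the intervals of the B cell and NK cell genes and above that of the neutrophil genes. Median depths were 3689 UMIs in Cd3-gated, 1839.5 in B cell-gated, 3508 in NK cell-gated and 2624.5 in neutrophil-gated barcodes. At least 1 C1q UMI, which these cells should lack, was found in 57.2% of B cell-gated, 68.2% of neutrophil-gated and 73.4% of Cd3-gated barcodes. These shares are pooled over libraries and not matched for them. Among libraries with at least 30 barcodes of a class, the B cell-gated share ran from 5.82 to 44.4% (3 libraries). The NK cell-gated share ran from 9.84 to 24.3% (6 libraries) and the neutrophil-gated share from 8.75 to 47.2% (12 libraries). In the pool, the share of Cd3-gated barcodes that were joint is near that of other leukocytes, and nothing particular to T cells is read from it.

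**Figure D1:**
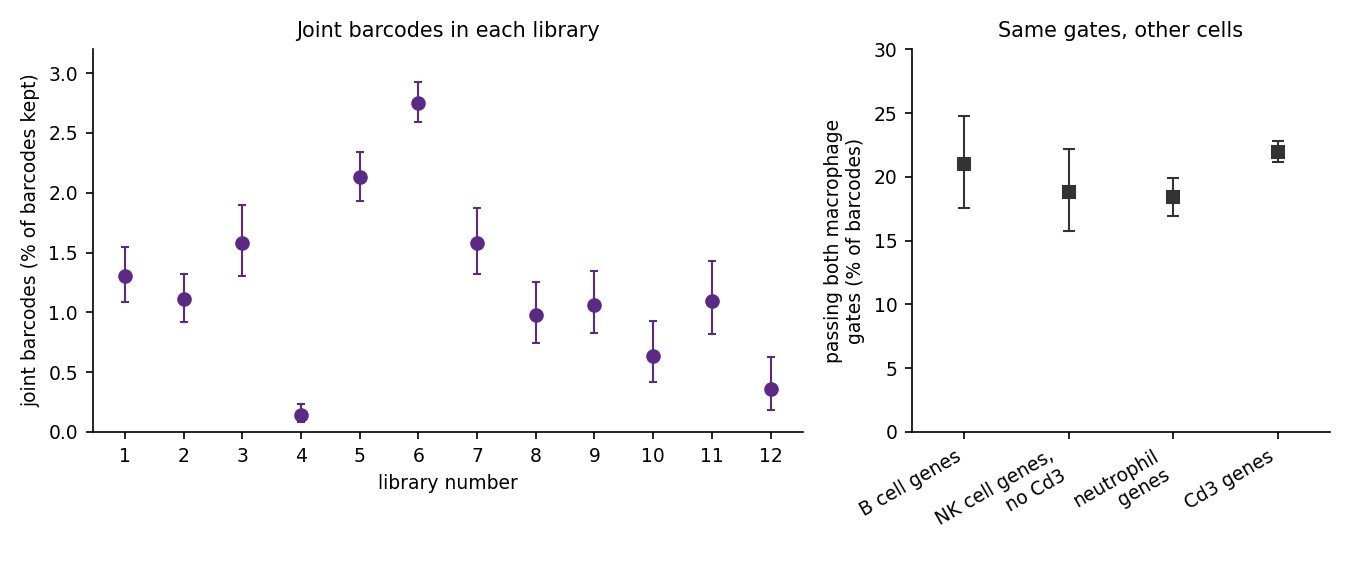
Left, joint barcodes as a percentage of the barcodes kept in each of the 12 libraries; right, the percentage of barcodes passing both macrophage gates among those chosen on B cell, NK cell, neutrophil or Cd3 genes. Points are shares and bars exact 95% intervals. Library 6 stands highest at 2.75% and library 4 lowest at 0.142%, and the 4 classes at right lie between 18.4 and 22.0%.

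In the other direction, 2.79% of the 77792 barcodes that passed both macrophage gates also passed the Cd3 gate. The Cd3 gate was passed by 2.96% of the neutrophil-gated barcodes (2.35 to 3.68%) and by 7.20% of the B cell-gated ones (5.12 to 9.79%). Within each library, joint barcodes were fewer than the product of the shares passing each gate, in 12 of 12 libraries. The ratio to this product was lowest in library 8 (0.104) and highest in library 6 (0.637), and its median was 0.259. Summed within libraries it was 0.363 for Cd3-gated (0.348 to 0.379) and 0.346 for B cell-gated barcodes (0.284 to 0.417). For neutrophil-gated barcodes it was 0.326 (0.297 to 0.356) and for NK cell-gated ones 0.292 (0.241 to 0.351). These ratios rest on the gate counts themselves, and a value below 1 is not read as a result about T cells and macrophages.

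By median UMIs, joint barcodes were deeper than either class of single cells within each library. By mean, those of library 8 were below its single macrophages (20555.8 against 20942.5 UMIs). Joint barcodes averaged 8469 UMIs, against 2344 in single T cells and 6087 in single macrophages. This is 1.00 times the sum of the single classes, and by library from 0.776 (library 8) to 1.26 (library 4) times. This ratio depends on how the classes were cut: single T cells, with 0 UMIs of 5 macrophage genes, had a median of 2019 UMIs, against 3689 in all Cd3-gated barcodes. Joint barcodes averaged 2543 detected genes, 0.861 times the sum, a quantity that cannot add up where both cells express the same gene. The median UMI count of joint barcodes was above that of single macrophages in 12 of 12 libraries, by 1.01 times (library 8) up to 1.77 times (library 4). Against the sum of the single medians, the joint median was lowest at 0.819 (library 8) and highest at 1.41 (library 4), and the middle value was 1.11. The limit of 5000 genes removed barcodes that met the 3 gates, 160 in all, 67 of them in library 8 beside 60 kept, and 29 in library 12 beside 12 kept (70.7% of those gated), but 0 in library 6. The mitochondrial limit removed 19.

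**Figure D2:**
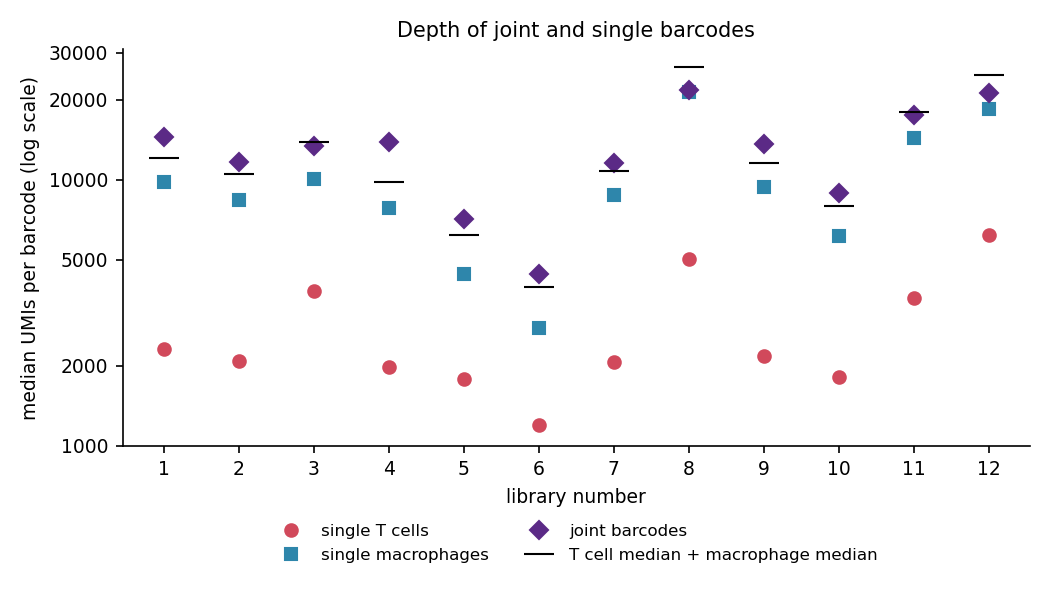
Median UMIs per barcode (log scale) of single T cells, single macrophages and joint barcodes in each library, with the sum of the single medians as a dash. Joint barcodes lie above single macrophages in 12 of 12 libraries, by 1.01 times in library 8.

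Transcripts of the other cell type in single cells differed between libraries as well. Single T cells, which by definition had 0 UMIs of the 5 macrophage gate genes, held myeloid reference UMIs at 1.98 to 7.39% of the level of single macrophages in 11 libraries and at 19.5% in library 6. T reference UMIs in single macrophages were at 0.178 to 2.56% of the level of single T cells, again with library 6 highest. The part of this in the number of joint barcodes of library 6 was not tested. Barcode sequences were shared between libraries by 3775 of the barcodes kept (2.93%) and by 63 of the joint barcodes (2.90%), and 4 joint barcodes had a sequence that was also joint in another library.

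Values near the thresholds are given as a description. Barcodes with 1 Cd3 UMI that passed both macrophage gates (n = 2011) averaged 0.909 T reference UMIs and had Cd8a in 6.17%. Joint barcodes with exactly 2 Cd3 UMIs (n = 577) averaged 3.23 T reference UMIs with Cd8a in 22.2%, and those with 3 or more (n = 1593) averaged 9.14 with Cd8a in 46.7%. At the gate on Adgre1 and Csf1r, Cd8a was found in 37.2% of barcodes with 1 UMI of Adgre1 and Csf1r that met the remaining gates and in 40.0% of those with exactly 2. At the C1q gate the numbers were small, with Cd8a in 48.3% of the 29 joint barcodes with exactly 3 C1q UMIs and in 25% of the 32 that fell short by 1, while the median joint barcode held 49.

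The T cells in joint barcodes were mostly of the CD8 lineage, as the single T cells were. A barcode was counted as CD8 with at least 1 UMI of Cd8a or Cd8b1, which encode the CD8 co-receptor, and none of Cd4 and Foxp3. It was counted as regulatory with at least 1 UMI of Foxp3, the lineage factor of regulatory T cells, and as other CD4 with Cd4 but none of the rest. Of the 1319 joint barcodes so assigned, 1120 were CD8, 191 other CD4 and 8 Foxp3-positive, while 58 carried Cd4 together with Cd8a or Cd8b1 and 793 carried none of these. CD8 made up 84.9% of the assigned joint barcodes (82.9 to 86.8%) and 87.8% of the assigned single T cells, a difference of -2.89 percentage points (-5.44 to -0.35). The CD8 share was higher in joint barcodes in 1 of the 10 libraries with at least 10 assigned barcodes of each class. Other CD4 made up 14.5 against 11.9%, a difference of 2.58 points (0.069 to 5.10), higher in 8 of 10 libraries. A Cd4 UMI was also found in 1.87% of single macrophages, beside a UMI of the T cell gene Trbc2 in 1.49%. The source of this Cd4, and its part in the difference, were not tested. With every barcode thinned to 1000 UMIs the difference in the CD8 share was 0.40 points (-2.67 to 3.47). Thinning equalised total UMIs and not those of the T cell, since Cd3d was then found in 24.8% of joint barcodes and 63.3% of single T cells. Unthinned, the difference in the CD8 share was -4.50 points without library 6. Its interval included 0 with at least 4 Cd3 UMIs (-5.06 to 0.91), with no mitochondrial limit (-4.80 to 0.28), without library 3 (-4.74 to 0.44) and without library 9 (-5.12 to 0.020).

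Among assigned joint barcodes the CD8 share ran from 48.7 to 94.3% over 10 libraries with a median of 73.9%, and among single T cells from 55.8 to 95.02% with a median of 83.0%. The ranges of the classes overlapped. Foxp3 was too rare for a comparison: the 8 joint barcodes with a UMI came from 4 libraries, 3 of them from library 8, and 6 single T cells had one. A regulatory T cell without a detected Foxp3 UMI would be counted as other CD4 or left unassigned. These numbers are therefore not read as the number of regulatory T cells. Of these 8 barcodes, 6 held Arg1, 4 held Cxcl9 and 8 held H2-Ab1.

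Cd8a was detected in 40.2% of joint barcodes (38.1 to 42.3%), in 39.9% of single T cells (37.0 to 43.0%) and in 0.681% of single macrophages. Over the libraries the share in joint barcodes was lowest in library 4 (6.25%) and highest in library 7 (55.1%), with a median of 40.8%, and in single T cells from 11.8 to 63.6% with a median of 42.2%. Joint barcodes and single T cells were therefore within counting error of each other for this gene, and both were lowest in library 4. If a joint barcode held 1 single T cell and 1 single macrophage of its library, the share with a UMI would be 40.3%, a value called the combined share below. Transcripts of the other cell type in single cells are counted in it, such as Apoe, which 77.5% of single T cells held. Where these come from RNA free in the droplet, that RNA is counted for both cells. Its part in the values below was not tested. After thinning to 1000 UMIs, which left out 342 single T cells, 157 single macrophages and 0 joint barcodes, Cd8a was found in 9.77% of joint barcodes and 24.7% of single T cells.

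To leave macrophage RNA out of the scale, T cell genes were expressed per 100 T reference UMIs. Cd8a stood at 11.8 in joint barcodes and 11.6 in single T cells (log2 ratio 0.029, 95% interval -0.068 to 0.13). Over the libraries it ran from 2.60 to 16.9 in joint barcodes with a median of 11.6, and from 3.74 to 15.1 in single T cells with a median of 10.0. The order of the classes changed from library to library, with joint barcodes higher in 4 of the 9 libraries that held at least 30 joint barcodes.

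Pdcd1 encodes the inhibitory receptor PD-1, which activated and exhausted T cells carry. It was detected in 37.7% of joint barcodes (35.7 to 39.8%), in 38.1% of single T cells (35.3 to 41.1%) and in 0.664% of single macrophages, with a combined share of 38.5%. By library joint barcodes were lowest in library 10 (15.4%) and highest in library 3 (59.6%), with a median of 43.8%, and the single T cell share from 13.5 to 70.9% with a median of 43.9%, with the same libraries at both ends. Per 100 T reference UMIs, Pdcd1 stood at 9.19 in joint barcodes and 9.56 in single T cells, a log2 ratio of -0.057 (-0.16 to 0.051), and was higher in joint barcodes in 3 of 9 libraries. No difference in Pdcd1 was detectable at this depth.

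The other T cell genes lay on both sides of the level of single T cells. Gzmb, which encodes granzyme B, stood at 15.9 per 100 T reference UMIs in joint barcodes and 15.2 in single T cells, and was higher in 5 of 9 libraries. Nkg7, a granule protein of cytotoxic cells, stood at 43.6 against 50.1 and was lower in 8 of 9 libraries. Ctla4, an inhibitory receptor, stood at 9.73 against 6.97, a log2 ratio of 0.48 (0.37 to 0.59), and was higher in 8 of 9 libraries. Icos stood at 12.4 against 10.3 and was higher in 9 of 9 libraries. Tnfrsf9 (4-1BB) stood at 14.2 against 11.2, a log2 ratio of 0.34, but 3.55% of single macrophages carry it, and against the sum of both single classes its log2 ratio was 0.22, higher in 8 of 9 libraries. Tcf7, the factor of memory-like T cells, stood at 1.28 against 1.07 with an interval of the log2 ratio from -0.021 to 0.53. Single T cells were 24.8% of the Cd3-gated barcodes, and for these genes no other cut of that class is given. T cell genes that macrophages also express cannot be scaled in this way. Havcr2 was found in 43.4% of single macrophages, Lag3 in 8.84% and Il7r in 16.2%, and they are set below against the sum of both single classes.

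**Figure D3:**
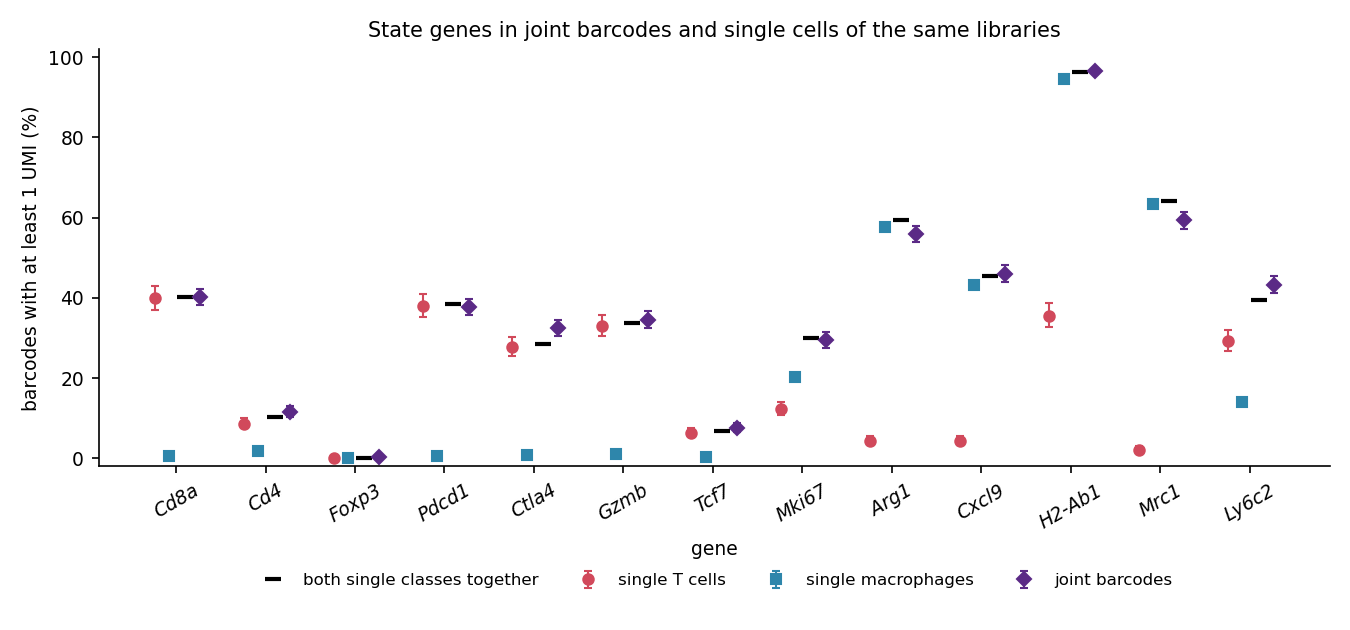
Percentage of barcodes with at least 1 UMI of each gene in single T cells, single macrophages and joint barcodes, with 95% intervals, and as a dash the combined share that 1 cell of each single class would give. Cd8a and Pdcd1 in joint barcodes lie within 1 point of the combined share, Arg1 and Mrc1 lie below it, and Ctla4 and Ly6c2 above it.

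For all genes, mean UMIs per joint barcode were set against the sum of the means of single T cells and single macrophages of the same libraries, scaled by 1.00 to equal total UMIs. Like the combined share, this sum counts in full the transcripts of the other cell type that each single class holds. A gene was called when it lay at least 1.5-fold from this sum, with the same direction in at least 80% of the 9 libraries. Of 7561 genes with at least 200 UMIs, gate genes left out, 99.5% lay within 1.5-fold. The median log2 ratio was 0.014, with 5% of genes below -0.17 and 5% above 0.20. Called above the sum were 16 genes (0.212% of those tested) and below it 2 (0.0265%). The 130 genes with at least 90% of the sum from T cells had a median log2 ratio of 0.044, and the 751 genes with at least 90% from macrophages one of -0.045.

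**Figure D4:**
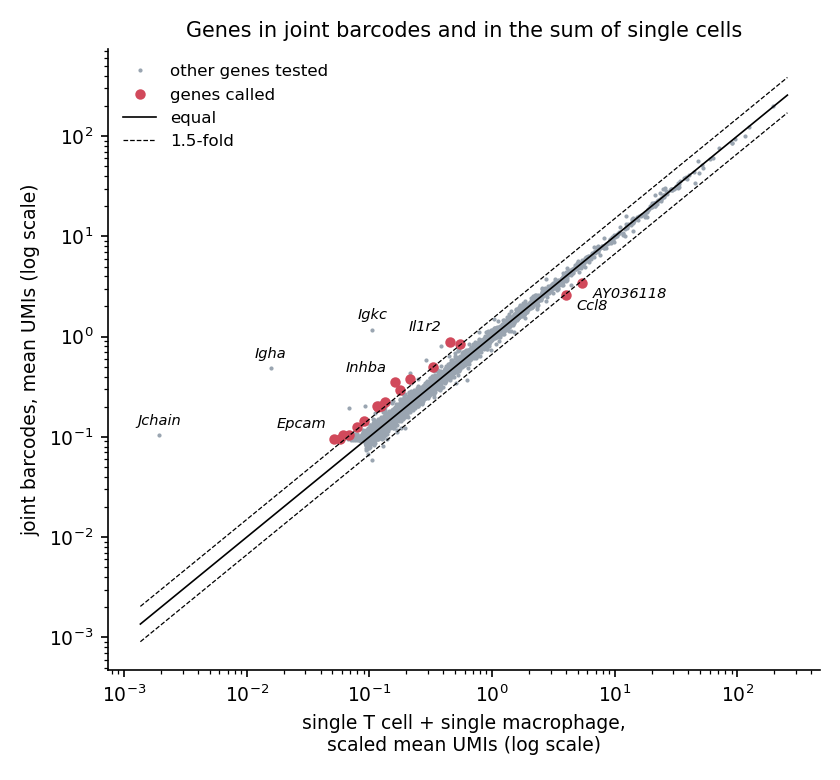
Mean UMIs per joint barcode against the scaled sum of single T cells and single macrophages for the genes tested (log scales). The solid line marks equality, the dashed lines 1.5-fold, red points the 18 genes called and grey points the rest. Most genes lie on the line; the grey points far above it that carry names are the immunoglobulin genes Igkc and Igha and Jchain, which did not have the same direction in enough libraries.

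The genes called above the sum were led by Inhba, which encodes an activin subunit, at 2.17 times the sum (0.349 against 0.160 UMIs per barcode), and Il1r2, the decoy receptor of interleukin 1, at 1.95 times (0.888 against 0.452). Both were higher in 9 of 9 libraries. Next were Epcam (1.85 times), Dcstamp, which takes part in the fusion of macrophages (1.77 times), H2-DMb2, which loads peptides on MHC class II (1.74 times), Hepacam2, Cd24a, Cbfa2t3, Kit and Itgae, which encodes CD103 (1.63 times). The remaining called genes, Slfn4, Tiam1, Ltb4r1, Napsa, Rtn1 and Qpct, were 1.503 to 1.62 times the sum. Several of these genes, such as H2-DMb2, Itgae, Cd24a and Napsa, are known from dendritic cells as well. The 2 genes called below were Ccl8, a chemokine of tissue macrophages, at 0.649 times the sum (2.61 against 3.998 UMIs per barcode), and AY036118 at 0.627 times (3.39 against 5.38), and both were lower in 9 of 9 libraries. The genes called above numbered 5 with single cells allowed up to the gate of the other class, and 41 with no limit on genes.

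In the T cell lists 0 genes were called, where 0.212% of all genes tested were called above the sum and 0.0265% below. At these shares, lists this short would rarely hold a called gene, so the count is not read as closeness to the sum. Among all genes tested, 5% had a log2 ratio above 0.20 and 5% one below -0.17. Of the 8 effector genes, 7 had enough UMIs, with 2 above and 5 below the sum and a median log2 ratio of -0.086. They ran from 0.21 for Ifng (interferon gamma) to -0.27 for the chemokine Ccl5. Ccl5 averaged 10.1 UMIs per joint barcode against 9.84 plus 2.23, and 38.5% of single macrophages held it. Its ratio is thus not one of T cells alone. All 5 costimulatory receptors lay above the sum with a median of 0.17, from 0.043 for Tnfrsf18 to 0.26 for Icos. Of the 5 memory genes tested, 4 lay above with a median of 0.20, among them Ccr7, the receptor for homing to lymph nodes, at 0.39 and Il7r at 0.15, and Slamf6 was lowest at -0.19. Of the 5 checkpoint genes tested, Ctla4 was highest at 0.46, Havcr2 (TIM-3) stood at 0.098, Lag3 at -0.048 and Pdcd1 was lowest at -0.066. Of the 4 lineage genes tested, 3 lay above the sum and 1 below, with a median of 0.074. Il2ra, the interleukin 2 receptor alpha chain, was highest at 0.42 and Cd8b1 lowest at -0.068.

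Mki67 encodes Ki-67, a marker of dividing cells that either cell can supply. It was detected in 29.4% of joint barcodes (27.5 to 31.4%), in 12.3% of single T cells and in 20.2% of single macrophages, and the combined share was 30.1%. By library joint barcodes were lowest in library 4 (12.5%) and highest in library 1 (41.3%), with a median of 27.2%, against medians of 10.8% in single T cells and 21.1% in single macrophages. Joint barcodes were above each single class but level with the combined share. In mean UMIs, Mki67 stood at 0.821 per joint barcode against 0.302 plus 0.576, a log2 ratio of -0.10 (-0.18 to -0.025). Without the limit of 5000 genes the ratio was 0.045, and without library 3 it was -0.047. Of the 8 cycling genes, 7 lay below the sum and 1 above with a median of -0.15, from -0.30 for Rrm2, a subunit of ribonucleotide reductase, to 0.019 for Top2a. Ezh2, which encodes the target of EZH2i, was found in 31.2% of joint barcodes beside a combined share of 30.1%.

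On the macrophage side, Arg1 encodes arginase 1, which breaks down arginine and marks suppressive tumor macrophages. It was detected in 55.9% of joint barcodes (53.8 to 58.0%), in 57.7% of single macrophages (57.1 to 58.4%) and in 4.43% of single T cells, and the combined share was 59.5%. By library joint barcodes were lowest in library 10 (30.8%) and highest in library 4 (87.5%), with a median of 61.3%, and the single macrophage share from 45.3 to 88.4% with a median of 66.2%. The joint share was below the combined share in each of the 9 libraries with at least 30 joint barcodes. The combined share counts the Arg1 of single T cells in full. Per 100 myeloid reference UMIs, Arg1 stood at 5.32 in joint barcodes and 5.82 in single macrophages, a log2 ratio of -0.13 (-0.16 to -0.099), and was higher in 2 of 9 libraries. The ratio was -0.079 without library 6 and -0.20 without library 11, and it was -0.025 (-0.060 to 0.0092) with at least 4 UMIs of Adgre1 and Csf1r. In mean UMIs against the sum of both single classes, Arg1 stood at 4.49 against 0.0579 plus 4.45, a log2 ratio of -0.012. Single T cells also held myeloid reference UMIs, 4.64 per cell from Cst3, which enter the first scale, so no direction can be given for the level of Arg1.

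Cxcl9 encodes a chemokine that interferon gamma induces and that attracts T cells through CXCR3. It was detected in 46.0% of joint barcodes (43.9 to 48.2%) and 43.2% of single macrophages (42.6 to 43.7%), with a combined share of 45.6%. By library joint barcodes were lowest in library 10 (11.5%) and highest in library 5 (60.2%), with a median of 39.1%, and the single macrophage share from 7.25 to 61.1% with a median of 39.5%. Per 100 myeloid reference UMIs it stood at 3.84 against 3.98, a log2 ratio of -0.055 (-0.090 to -0.020), higher in joint barcodes in 4 of 9 libraries. Without library 1 the ratio was 0.0012 and without library 9 it was 0.024, and over the sum of both single classes it was 0.048, so no direction can be given. Cxcl10, a chemokine of the same family, stood at 4.72 in both classes. Of the 6 interferon-induced genes listed, 3 lay above and 3 below the sum of the single classes, with a median log2 ratio of 0.022. Among them 0 were called, where 0.212% of all genes tested were called above the sum and 0.0265% below. This count is not read as closeness to the sum.

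H2-Ab1 encodes a chain of the MHC class II molecule that presents peptides to CD4 T cells. It was detected in 96.6% of joint barcodes (95.8 to 97.4%), in 94.6% of single macrophages and in 35.5% of single T cells, and the combined share, 96.3%, lay inside the interval of joint barcodes. By library joint barcodes were lowest in library 10 (88.5%) and highest in library 4 (100%), and the single macrophage share from 65.9 to 98.5%. Per 100 myeloid reference UMIs, H2-Ab1 stood at 36.4 in joint barcodes and 31.05 in single macrophages, a log2 ratio of 0.23 (0.21 to 0.24), and was higher in 9 of 9 libraries. By library it ran from 17.8 to 58.2 with a median of 36.1 in joint barcodes and from 8.90 to 44.6 with a median of 27.6 in single macrophages, so that the ranges overlapped although joint barcodes were higher within each of the 9 libraries. All 6 genes of the MHC class II list lay above the sum with a median log2 ratio of 0.26. Among them 0 were called, beside 0.212% of all genes tested called above the sum and 0.0265% below. Their log2 ratios ran from 0.18 for H2-DMa to 0.58 for Ciita, the transactivator of these genes. Dendritic cells express these genes as well, and of their markers Flt3 stood at 1.86 times the sum in joint barcodes, higher in 9 of 9 libraries, and Xcr1 at 1.58 times, higher in 5 of 9, both with fewer than 200 UMIs. The other 5 genes of the dendritic list stood at 1.31 times (Ccr7), 1.14 times (Fscn1), 1.09 times (Clec9a), 1.04 times (Zbtb46) and 0.912 times (Siglech). The part of dendritic cells in the MHC class II values was not tested.

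Of the monocyte genes 0 were called, and of the genes of tissue-resident macrophages Ccl8 alone, below the sum. Over all genes tested, 0.212% were called above the sum and 0.0265% below, so these counts are not read as a result about the lists. The 5 monocyte genes tested had log2 ratios above 0, from 0.078 for Fn1, with this direction in 5 of 9 libraries, and 0.13 for Chil3, in 6 of 9, with a median of 0.28, led by Plac8 at 0.44, which single T cells carried in 36.0% and single macrophages in 21.5%, and Ccr2, the receptor that draws monocytes from blood, at 0.37. Ly6c2, a marker of inflammatory monocytes, was detected in 43.3% of joint barcodes with a combined share of 39.4%, and as T cells carry it too (29.4% of single T cells), it is not given per myeloid reference. Ccr2 stood at 1.71 per 100 myeloid reference UMIs against 1.25 in single macrophages, higher in 8 of 9 libraries. Of the 6 genes of the resident list, the 5 with enough UMIs lay below the sum with a median of -0.27. The remaining gene, Cd163, had 15 UMIs and a log2 ratio of 0.45, with this direction in 5 of 9 libraries. Mrc1, the mannose receptor CD206, was detected in 59.3% of joint barcodes beside a combined share of 64.3%, and stood at 1.82 per 100 myeloid reference UMIs against 2.38, lower in 9 of 9 libraries. Folr2, a folate receptor of resident macrophages, had a log2 ratio of -0.59 to the sum, past the 1.5-fold limit but with this direction in 7 of 9 libraries, and Ccl8 one of -0.62.

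Of the 10 receptors and adaptors of the uptake of dead cells, 7 had enough UMIs, with 6 below the sum and 1 above and a median of -0.11. Gas6, which bridges dying cells to receptors of the Axl and Mertk family, was lowest at -0.57, and Mertk was found in 31.2% of joint barcodes beside a combined share of 31.7%. Of the 7 genes of arginase and hypoxia 4 lay above and 3 below, with a median of 0.029. Il1b, which encodes interleukin 1 beta, stood at 19.1 per 100 myeloid reference UMIs in joint barcodes against 15.0, higher in 9 of 9 libraries. Cd274, which encodes the ligand of PD-1, was detected in 43.1% of joint barcodes, in 31.6% of single macrophages and in 12.99% of single T cells, beside a combined share of 40.0%. The 5 costimulatory ligands tested had a median of 0.032. The 8 immediate early genes had one of 0.0084 and the 6 heat shock genes one of -0.010. In each list 0 genes were called, beside 0.212% of all genes tested called above the sum and 0.0265% below. These counts are not read as closeness to the sum.

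The question of which T cell state meets which macrophage state was then asked within the joint barcodes. The macrophage states with Arg1 and with Cxcl9 were not exclusive: of the 2170 joint barcodes, 651 held Arg1 alone (95% interval of the share 28.08 to 31.98%), 436 Cxcl9 alone (18.4 to 21.8%), 563 both and 520 neither, the last 2 being 25.9 and 23.96%. Single macrophages of the same libraries held Arg1 alone in 33.1%, Cxcl9 alone in 18.5%, both in 24.7% and neither in 23.8%. Among joint barcodes of the CD8 lineage, 28.4% held Arg1 alone and 20.4% Cxcl9 alone, and among those of the other CD4 lineage 33.0 and 18.3%, with intervals that overlapped. Barcodes with and without Pdcd1 had overlapping intervals too, with Arg1 alone in 31.0 and 29.4% and Cxcl9 alone in 19.3 and 20.6%.

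Each T cell state was then paired with each macrophage state. The number of barcodes with both was divided by the product of their shares, computed within library and within 3 equal parts of the barcodes by UMI count, so that library and most of the depth were held fixed. CD8 lineage and Cxcl9 met in 521 barcodes against 537.7 from the shares, a ratio of 0.97 (exact Poisson 95% interval 0.89 to 1.06). CD8 lineage and Arg1 met in 610 against 635.5, a ratio of 0.96 (0.89 to 1.04). CD8 lineage with H2-Ab1 above the library's median per myeloid reference UMI gave 1.03 (0.94 to 1.11), and the other CD4 lineage gave 1.07 (0.87 to 1.29) for the same state. Pdcd1 gave 0.97 with Arg1, 0.93 with Cxcl9 and 1.01 with high H2-Ab1. Mki67 gave 1.00 with Arg1, 0.96 with Cxcl9 and 0.97 with high H2-Ab1.

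Mki67 and Havcr2 can come from either cell, so their pairs do not strictly join a T cell state to a macrophage state. Across the 35 pairs without these genes, ratios ran from 0.82 for other CD4 with Nos2 (10 barcodes observed) to 1.31 for Tcf7 with Nos2 (13 observed). The interval of each of these pairs included 1, as did those of all 55 pairs computed. In direction, Pdcd1 with Spp1 (1.02) was above 1 in 8 of 9 libraries, and so, among the pairs with a gene of either cell, were Havcr2 with Cxcl9 (1.06), Havcr2 with Mrc1 (1.01) and Pdcd1 with Mki67 (1.01), while Mki67 with Mrc1 (1.06) was above 1 in 9 of 9. The intervals take the counts as Poisson, which is wider than the spread of a count with fixed margins. An interval that includes 1 is therefore not read as the absence of a pairing. Without regard to library, Cxcl9 stood at 4.66 per 100 myeloid reference UMIs in CD8 barcodes and 3.50 in other CD4 barcodes, Arg1 at 4.79 and 6.07, and H2-Ab1 at 37.9 and 38.0. The CD8 and other CD4 barcodes came from libraries in different proportions, and their median depths were 6868 and 10764 UMIs.

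**Figure D5:**
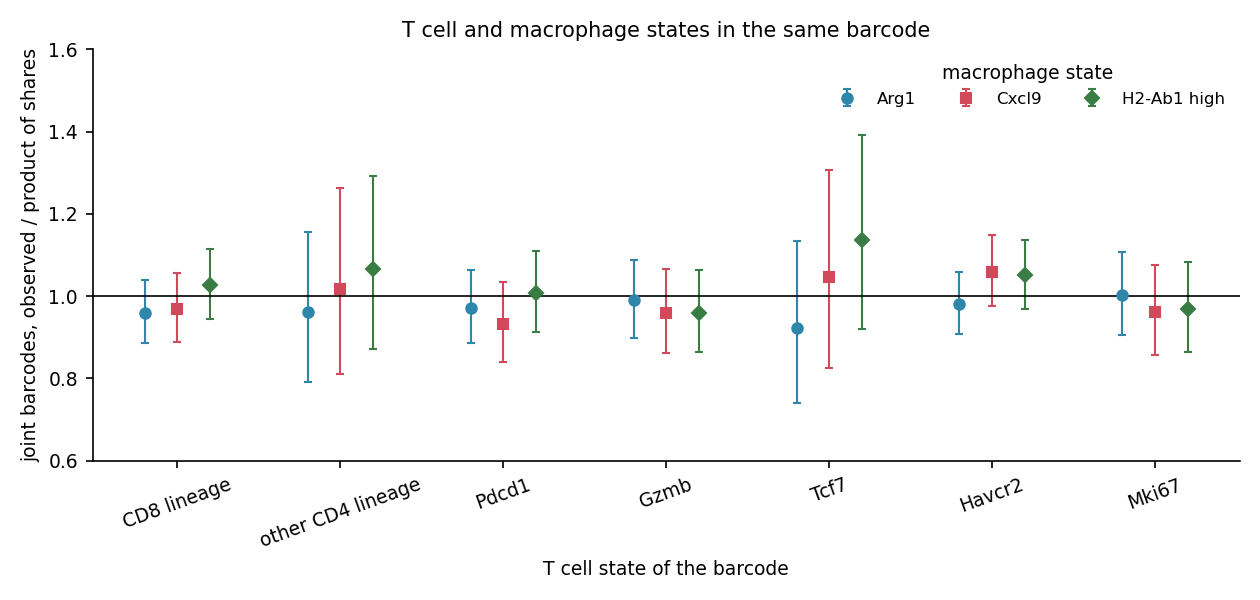
Number of joint barcodes with a T cell state and a macrophage state divided by the product of the shares within library and depth class, with exact Poisson 95% intervals; the line marks 1. Each interval of the pairs drawn crosses the line, with ratios from Tcf7 with high H2-Ab1 at 1.14 to Tcf7 with Arg1 at 0.92.

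Markers of other cells were also found in joint barcodes, some of them above the sum of the single classes. At least 2 UMIs of the 7 dendritic cell genes were found in 13.3% of joint barcodes, with 0.803 UMIs per barcode against 0.481 plus 0.134. Ccr7, also counted above among the T cell memory genes, supplied 0.505 of the 0.803 UMIs and 0.340 of the 0.481 in single T cells. Over the libraries their level ran from 0.048 to 1.54 per 10000 UMIs. Of the 6 neutrophil genes, S100a8 stood at 2.04 times and S100a9 at 2.11 times the sum, uncalled since 6 and 7 of 9 libraries had this direction. At least 2 neutrophil UMIs were found in 6.50% of joint barcodes, against 1.03% of single T cells and 3.58% of single macrophages. The neutrophil level ran from 0.436 to 38.4 per 10000 UMIs, with library 4 highest. The 6 B cell genes reached 2 UMIs in 1.34% of joint barcodes, the 6 NK cell genes in 9.95% (9.20% of single T cells, with a log2 ratio of the summed level to the sum of -0.044), the 6 tumor and stromal genes in 2.44%, the 4 plasma cell genes in 0.230%, and the 4 mast cell and 4 erythroid genes in 0.0461% each. Of the tumor and stromal genes, Epcam supplied 0.0959 of the 0.131 UMIs per joint barcode. Single T cells supplied 66.4% of the sum of the single classes for Epcam, so the 2.44% is not read as a share with tumor cells. Col1a1 stood at 0.410 times the sum with 26 UMIs and Col3a1 at 0.406 times with 33. Krt18 stood at 5.43 times with 17 UMIs, and Krt8 held 1 UMI. Jchain, a plasma cell gene, came from 5 joint barcodes. Genes at 0 UMIs in joint barcodes were Iglv1, Ms4a2 and Krt19, which allows a share of barcodes with a UMI of up to 0.170% (exact interval) and says nothing of cells that express these genes. The part of these cells in the genes called was not tested.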

How the data were processed

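From CD45+ cells of 12 mice, the authors made droplet libraries (10x Genomics 3' v3) and deposited 1 matrix of UMI counts over 12 libraries, not normalized. Its header names Cell Ranger 3.0.2, while the submitters' processing notes name Cell Ranger 2.1.1, Seurat and mm10. For the annotation and any downsampling of reads across libraries, nothing was found in the labels, headers or methods. The deposited barcodes and gene identifiers (units of another kind) name the columns and rows. No sequence was needed, and 0 columns were left without a sample row.

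Barcodes were selected as described at the start of the report. No doublet caller was run, since the rule itself selects barcodes with transcripts of 2 cell types. Single classes were weighted to the library make-up of the joint barcodes. The gene comparison used genes with at least 200 UMIs, observed or in the sum, and libraries with at least 30 joint barcodes. Thinning drew 1000 UMIs per barcode without replacement with a fixed seed. Intervals are exact Clopper-Pearson or Poisson intervals, gamma intervals for weighted shares, and normal counting intervals for differences of shares and for log2 ratios, all at 95%; UMIs of 1 barcode are not independent, so these are too narrow for differences between cells. No p-value was computed, because no label ties the libraries to mice or groups and the matrix was treated as 1 pooled sample. The calculation of the gene comparison was run on simulated barcodes, made by adding single T cells and single macrophages, with known changes in some genes. As these come from the same single classes as the sum, they cannot check how the classes were cut. Nor can they check the transcripts of the other cell type that the classes hold.

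The members, gene lists and state genes were chosen with earlier results of these data known. Named genes were the 7 state genes, up to 4 genes per list with the largest and smallest ratios among those with at least 200 UMIs, and the 10 called genes furthest above and below the sum; other genes were named after their values were seen. The gates for B cells, NK cells and neutrophils were also set after the data had been seen. Alternatives were stricter gates, no gene limit, no mitochondrial limit, each library left out, looser single classes, thinning, other margins, Cxcl9 at 3 UMIs and genes with at least 50 UMIs. Gene coordinates are from GENCODE M21. Versions were scipy 1.17.1, numpy 2.4.6, matplotlib 3.10.9 and pandas 2.3.3 under Python 3.11.15.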

Additional observations from a re-analysis of the deposited data

Results flagged for a closer look

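Of the 2729 barcodes with 5000 or more detected genes, which the limits of the study leave out, 160 passed the 3 gates of joint barcodes (5.86%, exact 95% interval 5.01 to 6.81%), against 1.68% of the barcodes kept. They were not used in the comparisons. Those closest above the limit on genes, with at most 10% mitochondrial UMIs (n = 74), averaged 25.0 T reference UMIs and 298.5 myeloid reference UMIs, and the joint barcodes closest below it (n = 85) averaged 19.1 and 241.1.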

How the results depend on the processing

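The number of joint barcodes was 1238 with at least 4 Cd3 UMIs, 1184 with at least 4 UMIs of Adgre1 and Csf1r, and 2329 with no limit on genes, against 2170. Per myeloid reference UMI, the log2 ratio of Arg1 was -0.20, -0.025 and -0.083 under these settings in this order (main -0.13). That of Cxcl9 was -0.0087, -0.11 and -0.13 (main -0.055). That of H2-Ab1 was 0.28 with 4 Cd3 UMIs, 0.21 with 6 C1q UMIs and 0.28 with no limit on genes (main 0.23). Mki67 reversed to 0.045 with no limit on genes (main -0.10), and the difference in the CD8 share reversed to 0.40 points after thinning to 1000 UMIs (main -2.89).

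The genes called above the sum numbered 36 and those below 22 with a minimum of 50 UMIs. With single cells allowed up to the gate of the other class, 5 were called above. With no limit on genes, an alternative added after seeing the data, 41 were called above and 4 below, among them the 16 and 2 of the report.

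With each library left out in turn, the number of joint barcodes ran from 1140 (without library 6) to 2158, the CD8 difference from -4.50 (without library 6) to -2.15 points and the Foxp3 difference from 0.11 (without library 8) to 0.54 points (without library 6). Log2 ratios ran from -0.080 to -0.036 for Pdcd1 (without library 5), from -0.14 to -0.047 for Mki67 (without library 3), from -0.20 (without library 11) to -0.079 (without library 6) for Arg1, from -0.14 (without library 11) to 0.024 (without library 9) for Cxcl9, which was 0.0012 without library 1, and from 0.21 to 0.28 for H2-Ab1. The ratio of CD8 with Cxcl9 ran from 0.96 to 0.98. Genes called above ran from 12 to 22 and those below from 1 (without library 4) to 6 (without library 11), with 4 without library 2 and 5 without library 6 or library 8; between 11 and 16 of the 16 and between 1 and 2 of the 2 genes remained called. These fits of all genes were added after seeing the data. The causes of these changes were not tested.

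Depth limits the rare states: 8 joint barcodes with Foxp3 allow no comparison. No label ties the library numbers to EZH2i or vehicle, and 1 library holds 47.5% of the joint barcodes. No paired analysis of EZH2i and vehicle was made, because no label gives the libraries a group or replicate number. Joint barcodes and single cells of the same library were compared by counts of libraries, and a test of these pairs was not run.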
